A study of Mus musculus with 14 samples.

Results

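COMPASS complexes write methylation on lysine 4 of histone H3, and the 10 genes described here encode their enzymes and shared core: Kmt2a, Kmt2b, Kmt2c, Kmt2d, Setd1a and Setd1b (the 6 catalytic subunits) and Wdr5, Rbbp5, Ash2l and Dpy30 (the 4 core subunits). They were chosen by name, as 10 of 21887 protein-coding genes of the RefSeq table of mouse build GRCm38, the assembly of mm10, and all 10 were found in it. Each was read over its gene span plus 5 kb at either end (its window). Bone marrow progenitors, enriched by removing lineage-positive cells, came from C57BL/6 mice with an intact Utx (UTX WT) or without it (UTX KO), chromatin-precipitated for H3K27ac and H3K27me3 (2 WT and 2 KO libraries each) and for UTX (2 WT libraries), with 1 WT IgG library as background, whose label names a BCOR precipitation. UTX is the protein of Kdm6a. The Cre driver, the age and sex of the mice and any pooling of animals are not given in the sources used here, nor whether numbered replicates are separate animals. The p-values therefore measure the spread between libraries only. Of the 14 samples, 3 (inputs and another IgG) were left out.

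In a COMPASS complex the catalytic subunit carries a SET domain, and Wdr5, Rbbp5, Ash2l and Dpy30 bind it together and are needed for full activity. SETD1A and SETD1B deposit most H3K4 trimethylation at active promoters, KMT2A (MLL1) and KMT2B (MLL2) act at narrower sets of promoters, among them the Hox genes for KMT2A, and KMT2C (MLL3) and KMT2D (MLL4) place H3K4 monomethylation at enhancers. UTX, a demethylase of H3K27, is itself a subunit of the KMT2C and KMT2D complexes, so these 10 genes encode its direct partners and their relatives.

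The values are reads in islands, the stretches that SICER called as enriched in each library, scaled per 1000000 island reads of that library (rpm). Island reads ranged from 9330823 to 15256696 over the 4 H3K27ac libraries and from 2347442 to 2743508 over the 4 H3K27me3 libraries. They were 816567 and 1834418 in the UTX libraries and 154029 in the IgG library. A window without an island has no reads on this scale. In bulk chromatin, fewer cells with a mark and less of it per cell cannot be told apart. H3K27ac islands met all 8 stem and progenitor markers in every WT and KO library and none of 5 markers of other tissues. Summed over a marker list, H3K27ac in WT and KO libraries was 502 to 594 and 170 to 204 rpm for 7 erythroid genes, 585 to 818 and 396 to 432 rpm for 5 megakaryocyte genes, 834 to 924 and 1073 to 1193 rpm for 8 granulocyte and monocyte genes, and 294 to 318 and 579 to 804 rpm for 6 B cell genes. The sums were 2948 to 3110 and 2584 to 2885 rpm for the stem and progenitor genes, 133 to 168 and 180 to 285 rpm for 6 T and NK cell genes, and 261 to 277 and 396 to 413 rpm for 6 stromal and endothelial genes, of which Pdgfra, Col1a1, Cxcl12 and Lepr had no island. WT and KO sums did not overlap for any of these 7 lists. The part of these differences in the results below was not tested. Kdm6a itself held H3K27ac islands in all 4 libraries (197 and 102 rpm in WT, 181 and 185 rpm in KO); the deleted segment is not given in the sources used here, so this does not check the genotypes.

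RefSeq lists 10 promoter windows for 7 of the genes (300 bases, 250 before to 50 after a transcription start, GRCm38.p6), and none for Kmt2b, Setd1b and Ash2l. 4 of them are shown because the results turn on them. They are the upstream and an internal start of Dpy30, which differ in their chromatin, and the promoters of Setd1a and Kmt2d. That of Setd1a was the only one of the tested promoter regions to pass the edgeR test of H3K27ac, and that of Kmt2d was the one with the most UTX. Capitals mark CG dinucleotides.
Dpy30 upstream start, chr17:74323895-74324194, minus strand: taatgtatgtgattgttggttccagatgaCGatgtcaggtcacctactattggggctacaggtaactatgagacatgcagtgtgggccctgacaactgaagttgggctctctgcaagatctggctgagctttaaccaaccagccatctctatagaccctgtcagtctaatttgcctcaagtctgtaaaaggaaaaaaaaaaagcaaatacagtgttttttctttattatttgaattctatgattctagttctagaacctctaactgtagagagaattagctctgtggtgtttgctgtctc
Dpy30 internal start, chr17:74316162-74316461, minus strand: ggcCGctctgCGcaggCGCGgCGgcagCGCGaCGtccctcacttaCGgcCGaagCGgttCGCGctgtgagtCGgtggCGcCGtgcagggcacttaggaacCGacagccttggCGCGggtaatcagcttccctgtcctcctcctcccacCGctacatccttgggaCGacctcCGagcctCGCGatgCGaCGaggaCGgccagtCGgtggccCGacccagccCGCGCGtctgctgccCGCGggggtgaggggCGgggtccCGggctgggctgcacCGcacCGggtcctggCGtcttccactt
Setd1a, chr7:127777139-127777438, plus strand: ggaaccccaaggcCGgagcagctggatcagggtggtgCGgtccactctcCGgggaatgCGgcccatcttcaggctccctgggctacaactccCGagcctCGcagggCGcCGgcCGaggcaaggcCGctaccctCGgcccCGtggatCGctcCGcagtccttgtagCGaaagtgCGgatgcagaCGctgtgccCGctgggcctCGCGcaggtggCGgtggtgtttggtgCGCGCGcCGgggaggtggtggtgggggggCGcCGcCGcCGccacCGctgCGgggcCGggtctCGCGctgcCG
Kmt2d, chr15:98871156-98871455, minus strand: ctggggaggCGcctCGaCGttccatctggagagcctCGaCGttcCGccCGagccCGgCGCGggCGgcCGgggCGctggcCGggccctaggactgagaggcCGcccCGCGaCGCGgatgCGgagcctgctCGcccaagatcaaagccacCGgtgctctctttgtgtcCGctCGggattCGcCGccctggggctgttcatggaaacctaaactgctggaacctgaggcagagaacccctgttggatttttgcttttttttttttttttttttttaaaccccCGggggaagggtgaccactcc
The upstream Dpy30 window holds 1 CG. Among the 21263 mouse promoter windows 4.63% hold fewer, and the median over all of them was 13. The 3 internal starts, 16.7 to 17.0 kb from the lower-coordinate end of the gene, hold 30, 34 and 39. The other 6 genes range from 16 (Rbbp5) through 22 (Wdr5), 27 (Kmt2d), 35 (Setd1a) and 36 (Kmt2a) to 56 (Kmt2c), against a median of 22 in windows with an H3K27ac island in all 4 libraries. The ETS motif CCGGAA was searched on both strands and found in 18.7% of all windows and 31.1% of the acetylated ones. Among the 10 COMPASS windows it occurred once, in Kmt2a. The GATA motif AGATAA, in 9.65% of all and 5.87% of acetylated windows, occurred in 0 of the 10. These matches describe letters in short windows and say nothing of binding.

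UTX lay on nearly all of these genes in WT progenitors, including the genes of its own partner enzymes. An island of both UTX libraries met 9 of the 10 windows, against 42.4% of all 21887 genes, and the IgG library had no island in any of them. The exception was Ash2l, with no island in replicate 1 and 91.0 rpm in replicate 2. By the narrower criterion of islands in both UTX libraries, without an IgG island, within 2 kb of an annotated gene end, 8 of 10 were occupied (34.2% of all genes); Ash2l and Dpy30 were not. All 7 genes with a RefSeq promoter window had UTX there in both libraries (33.0% of the 17492 genes with such a window, and 65.2% of those with H3K27ac there). These are descriptions of 2 WT libraries, and no test was made.

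Among the 7 genes with a RefSeq promoter window, Kmt2d, a catalytic partner of UTX, had the most UTX at its promoter. The island there held 351 and 228 rpm, a mean of 289.7 ± 87.4 rpm (SD, n = 2), more than at 99.8% of the 5768 genes with an occupied promoter. Kmt2a followed with 215.5 and 176.6 rpm (97.8% of genes lower), Rbbp5 with 206 and 135 rpm (95.5%), and Kmt2c, the other partner enzyme, with 148 and 174 rpm (94.2%). Wdr5 (168 and 101 rpm, 88.5%) and Setd1a (138 and 94.9 rpm, 81.0%) were also above the median of 76.9 rpm, while Dpy30 (62.5 and 62.7 rpm, 31.4%) was below it. Replicate 1 was above replicate 2 at Kmt2d, Kmt2a, Rbbp5, Wdr5 and Setd1a and below it at Kmt2c. The range of Rbbp5 overlapped those of Kmt2a, Kmt2c, Wdr5 and Setd1a, and the range of Wdr5 also overlapped those of Kmt2c and Setd1a. These values count all reads of an island, whatever its width. Setd1b, Kmt2b and Ash2l have no such window and were not ranked. The UTX island over the lower-coordinate end of Setd1b held 306 and 487 rpm, less than Kmt2d in replicate 1 and more in replicate 2.

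Per kb of window, where genes of different length can be compared, Setd1b had the most UTX with 8.37 and 15.1 rpm per kb (11.7 ± 4.78, SD, n = 2). Its reads came mostly from 1 broad island around the lower-coordinate end of the gene, 7.0 kb wide in replicate 1 and 10.4 kb in replicate 2, where the median UTX island of those libraries was 1.2 and 1.6 kb wide. Dpy30 (8.10 ± 0.20), Kmt2d (7.53 ± 0.98), Kmt2b (5.95 ± 3.08), Wdr5 (5.57 ± 1.67) and Rbbp5 (4.78 ± 0.83 rpm per kb) followed. Each of these neighbours in the order, Setd1b included, differed by less than the larger SD of the pair. Setd1a (3.94 ± 0.41), Kmt2a (2.94 ± 0.23) and the long gene Kmt2c (1.20 ± 0.45 rpm per kb) were lower in steps larger than their SDs, and Kmt2c and Ash2l (1.09 ± 1.54) did not differ beyond their spread. Islands that reach past a window were counted whole in these values. For Dpy30, 222 of 284 rpm and 178 of 274 rpm came from such an island beyond the gene, on the side of Memo1. With the reads of edge islands scaled by the share of their length inside the window, Dpy30 had 6.14 ± 0.11 rpm per kb, below Kmt2d (7.53 ± 0.98). Kmt2b (4.88 ± 1.57) then came below Wdr5. The 2 libraries held 15 and 29 UTX islands in the 10 windows, of which 14 and 19 overlapped an H3K27ac region and 7 in each library lay at the gene's own promoter. Kmt2c, with 3 islands in replicate 1 and 8 in replicate 2, had the most. Over the whole genome 77.3% of islands overlapped an H3K27ac region in either library.

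**Figure D1:**
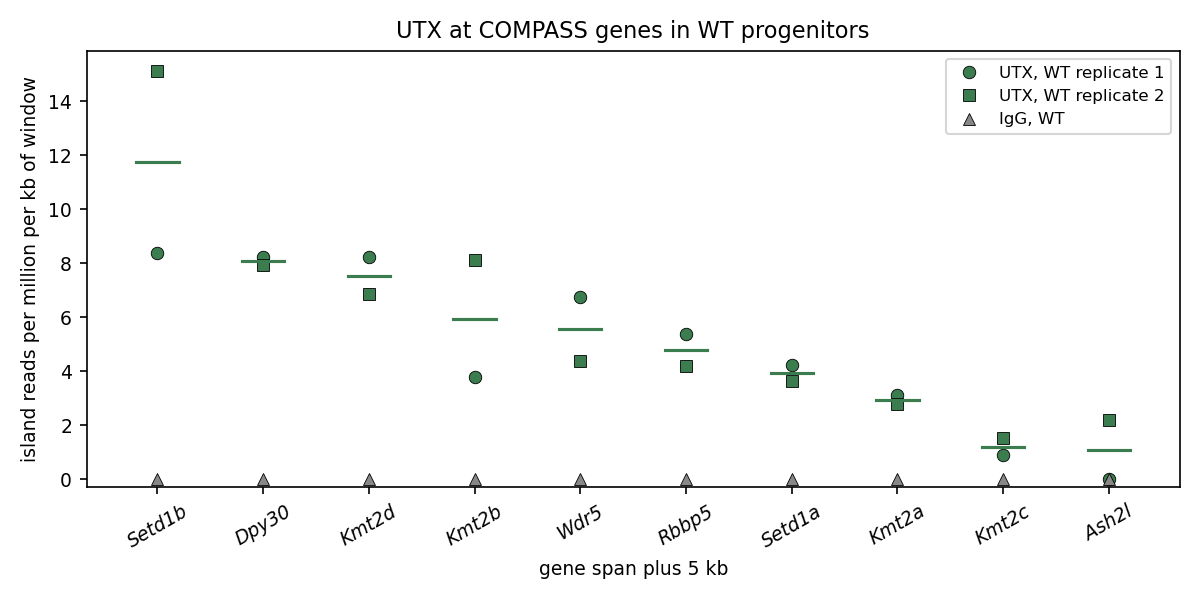
UTX in WT progenitors over each gene span plus 5 kb, as rpm per kb of window (vertical axis), with both UTX libraries, their mean (bar) and the IgG library. Setd1b has the highest mean (11.7) and Ash2l the lowest (1.09, with no island in replicate 1), and the IgG library is at 0 for all 10 genes.

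All 10 windows carried H3K27ac islands in all 4 libraries. Of all 21887 genes, 61.3% had an H3K27ac island in both WT libraries and 60.8% in both KO libraries. In WT the highest level per kb was again that of Setd1b (14.7 ± 0.95 rpm per kb, above 98.9% of all genes), then Setd1a (10.01 ± 0.37), Dpy30 (8.07 ± 3.46), Kmt2d (6.19 ± 0.16) and Kmt2b (6.05 ± 0.87), with Wdr5 at 3.93 ± 0.44. Ash2l (1.66 ± 0.0045), Kmt2a (1.56 ± 0.13), Rbbp5 (1.02 ± 0.055) and Kmt2c (0.536 ± 0.079 rpm per kb, above 49.6% of genes) were lowest. Setd1a to Dpy30, Dpy30 to Kmt2d, Kmt2d to Kmt2b and Ash2l to Kmt2a differed by less than the larger SD of the pair. This order depends on edge islands, which were counted whole. With their reads scaled by the share of their length inside the window, Setd1b was at 9.47 ± 0.64 rpm per kb and Kmt2d at 5.86 ± 0.21. Setd1a was at 4.56 ± 0.030, Kmt2b at 4.19 ± 0.12, Wdr5 at 3.55 ± 0.21 and Dpy30 at 3.30 ± 0.57. Kmt2d then came second and Dpy30 below Wdr5, from which it did not differ beyond its SD.

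With edge islands counted whole, no COMPASS gene passed the edgeR test of H3K27ac between WT and KO over its window. With the reads of each edge island scaled by the share of its length inside the window, 3 did (Kmt2b, Setd1a and Setd1b). This scaling assumes even read density along an island, so its result depends on where the islands of each library end. In the first count, 0 of 10 passed an adjusted p of 0.05, where 18.9% of 12867 tested genes did (8.82% higher and 10.1% lower in KO); 2 of the 10 had an unadjusted p under 0.05, and DESeq2 passed 2 (28.7% of all genes). Their median log2 fold change, KO over WT, was -0.11, with 7 of 10 below 0, and that of all tested genes 0.012.

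Of the catalytic genes, Setd1a had 336 and 319 rpm in WT and 138.5 and 241 rpm in KO. Both KO libraries lay below both WT libraries (log2 fold change -0.83 ± 0.27 SE, edgeR adjusted p 0.110, DESeq2 0.020). The edgeR value was -0.50 without KO replicate 1 (adjusted p 0.113) and -1.28 without KO replicate 2 (adjusted p 0.046). Kmt2a had 145.5 and 129.5 rpm in WT and 112 and 112 rpm in KO, also without overlap (-0.34 ± 0.091, edgeR adjusted p 0.075, DESeq2 0.043). Kmt2d had 318 and 330 rpm in WT and 292 and 324 rpm in KO, with the groups overlapping in rpm (-0.12 ± 0.091, edgeR adjusted p 0.406). In CPM, the edgeR scale over tested genes, the Kmt2d groups did not overlap (252.0 and 272.8 in WT, 232.6 and 251.6 in KO). Kmt2c (140 and 114 rpm in WT, 134 and 139 rpm in KO) and Setd1b (563 and 514 rpm in WT, 538 and 545 rpm in KO) overlapped on both scales, with log2 fold changes of 0.06 ± 0.12 and -0.03 ± 0.073. Kmt2b had 164 and 201 rpm in WT and 267.5 and 163 rpm in KO. Its high KO value came from 1 island of 179 rpm that reached into the window from a neighbouring H3K27ac region. With edge islands scaled by their length inside the window, Kmt2b was lower in KO (-0.53, edgeR adjusted p 0.038) instead of 0.20 ± 0.30. Under that count Setd1a (-0.48, edgeR adjusted p 0.022) and Setd1b (-0.45, edgeR adjusted p 0.018) passed as well, 3 of 10 lower where 12.9% of all genes were. The merged H3K27ac region over the lower-coordinate end of Setd1b, counted whole, was at -0.07 (edgeR adjusted p 0.488).

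Of the core genes, Dpy30 had 194 and 362 rpm in WT and 155 and 170 rpm in KO. Both WT libraries were above both KO libraries, but WT replicate 2 stood far above the rest because an island of 42.8 kb, called as 1 stretch in that library, touched the window and was counted whole (-0.83 ± 0.34, edgeR adjusted p 0.169). The Dpy30 value was -0.27 without WT replicate 2 (adjusted p 0.201), -1.23 without WT replicate 1 (adjusted p 0.046) and -0.28 with edge islands in proportion (adjusted p 0.200). Wdr5 (114 and 133 rpm in WT, 139 and 117 rpm in KO) and Rbbp5 (40.5 and 37.6 rpm in WT, 36.0 and 38.4 rpm in KO) overlapped between groups in rpm, with log2 fold changes of 0.01 ± 0.16 and -0.11 ± 0.11. In CPM, Rbbp5 did not overlap (32.1 and 31.0 in WT, 28.7 and 29.8 in KO). Ash2l (69.0 and 69.3 rpm in WT, 60.7 and 65.8 rpm in KO) did not overlap, at -0.17 ± 0.0997 (edgeR adjusted p 0.287).

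**Figure D2:**
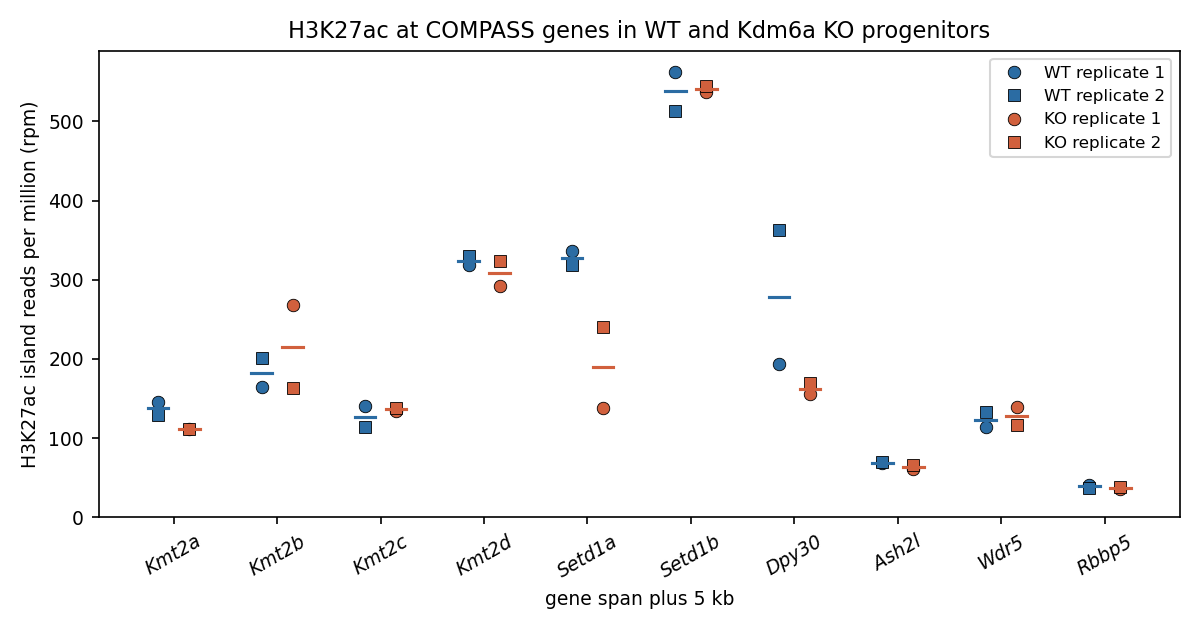
H3K27ac over each gene span plus 5 kb in the 2 WT and 2 KO libraries, in rpm (vertical axis), with group means (bars). Setd1a and Dpy30 have the widest gaps between the group means, and WT replicate 2 of Dpy30 (362 rpm) lies far above its other 3 libraries.

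The windows were then taken apart into regions. Islands of the 4 H3K27ac libraries were merged where they overlapped, and values are CPM over tested regions. 30 merged regions met the 10 windows, and 17 had an island in all 4 libraries and were tested. Of these, 4 fell in KO and 0 rose, against 14.0% lower and 12.0% higher of all 18820 tested regions (26.0% in either direction). DESeq2 also called 4 of the 17. Of the 7 tested regions over a gene's own RefSeq promoter 1 was called, that of Setd1a.

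At Dpy30 the fall lay outside the gene. The region ran from 44.7 to 1.27 kb beyond the lower-coordinate end of Dpy30 (chr17:74254801-74298200, mm10), over Memo1, which encodes a regulator of cell motility, and its promoter. It held 258 and 328 CPM in WT and 143 and 147 CPM in KO, so that all KO values were below all WT values (292.8 ± 49.8 against 145.0 ± 3.19 CPM; a change of -1.02 ± 0.12 on the log2 scale, edgeR adjusted p 0.00152). The islands covered 35.4 and 42.8 kb in WT and 22.8 and 20.8 kb in KO, while the reads per covered kb stayed between 5.95 and 6.86 rpm in all 4 libraries. On that density the difference was -0.165 and did not pass (adjusted p 0.569). UTX lay in the region in WT, with 1 island in replicate 1 and 6 in replicate 2. The call held without each of the 4 libraries in turn (adjusted p 0.00236 to 0.0131).

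The acetylated promoter of Dpy30 itself did not pass. Its region over the 3 internal starts held 70.1 and 64.3 CPM in WT and 56.8 and 52.4 CPM in KO (-0.30 ± 0.11, adjusted p 0.100), without overlap between the groups. The CG-poor upstream start, printed above, met no island in any of the 11 libraries, while the CG-rich internal starts had H3K27ac in all 4 libraries and UTX in both. The only H3K27ac island near the upstream start was 1 of 46 reads in KO replicate 1, ending 24.3 kb from the lower-coordinate end, where the start lies at 24.5 kb.

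**Figure D3:**
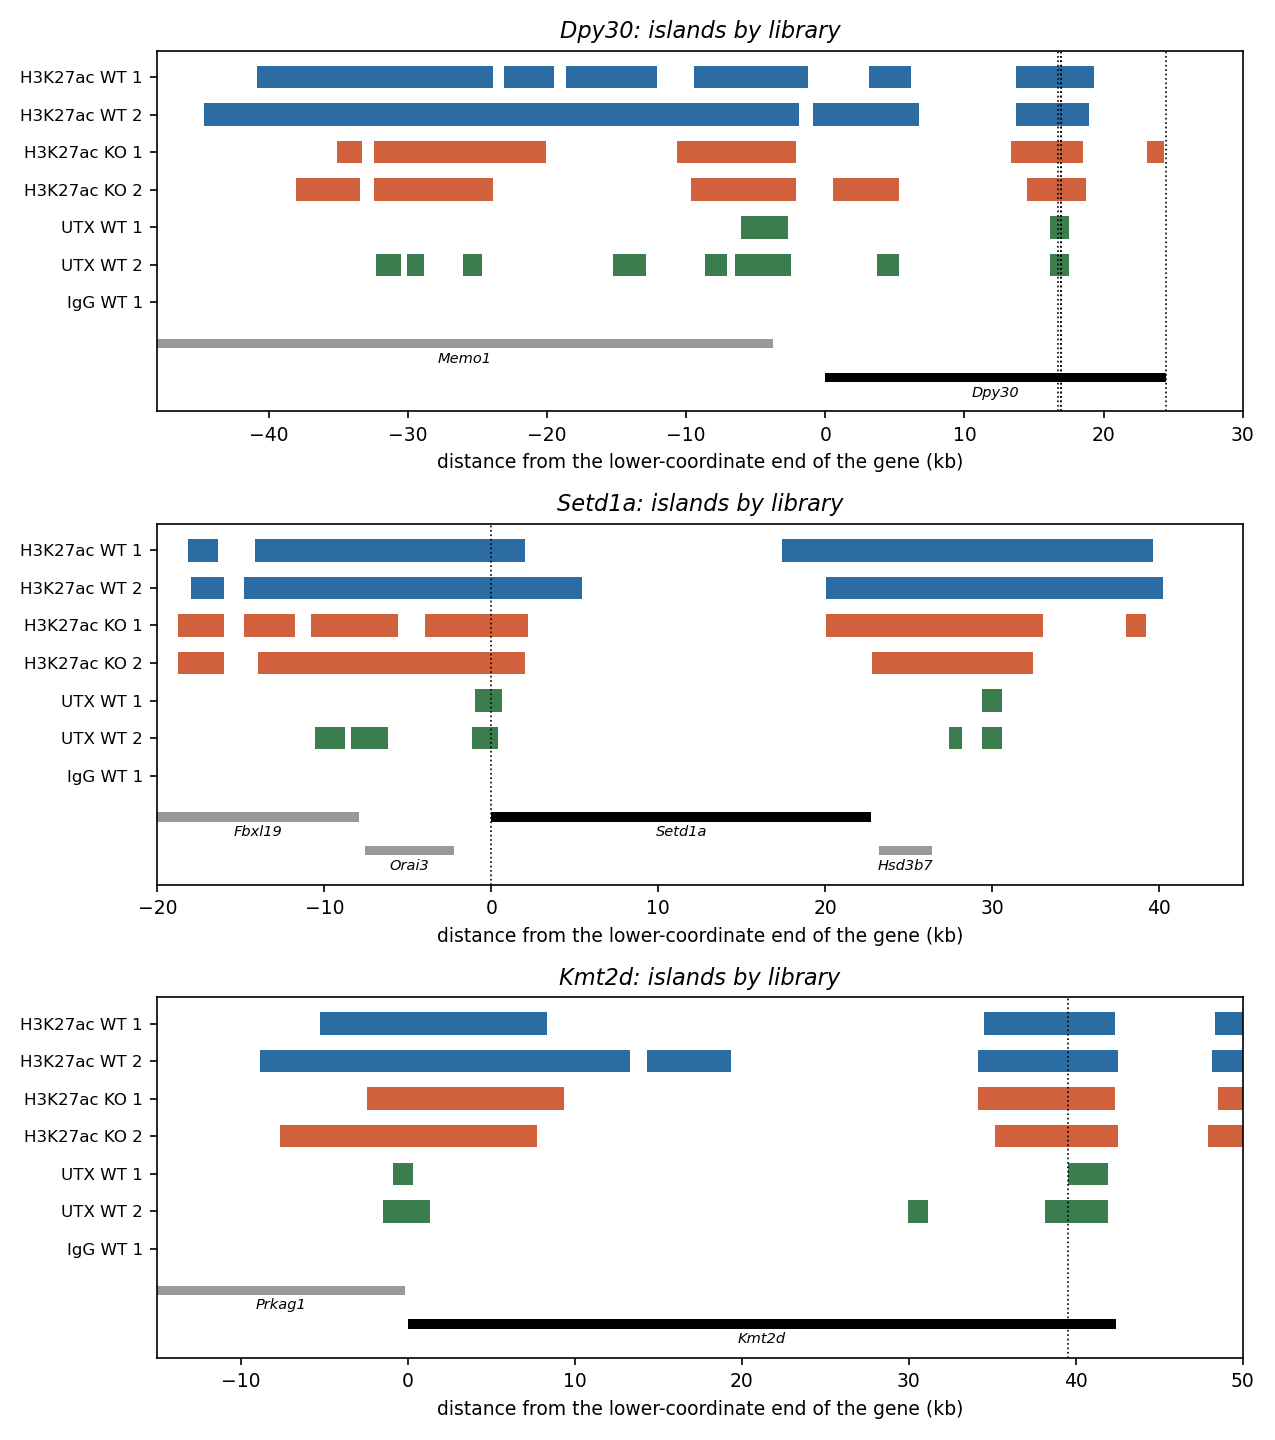
Islands of the H3K27ac, UTX and IgG libraries (rows) around Dpy30, Setd1a and Kmt2d, by distance in kb from each gene's lower-coordinate end, with the genes named in the text drawn below and RefSeq starts as dotted lines. At Dpy30 the KO islands left of the gene cover less (22.8 and 20.8 kb) than the WT ones (35.4 and 42.8 kb), while the islands over the internal starts are present in every H3K27ac and UTX library.

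At Setd1a, 2 regions fell. The larger fall was in a region that begins inside the gene, 17.4 kb after its start, and runs past its far end over Hsd3b7, which encodes a bile acid synthesis enzyme. It held 152 and 138 CPM in WT and 70.6 and 63.5 CPM in KO (145.2 ± 9.85 against 67.0 ± 5.0 CPM, -1.11 ± 0.10, edgeR adjusted p 0.000674), 2.16-fold lower in KO with no overlap. Its islands covered 22.2 and 20.2 kb in WT and 14.2 and 9.6 kb in KO, and per covered kb it did not pass (-0.245, adjusted p 0.581). The call held without each library in turn (adjusted p 0.000945 to 0.0143). The second region, over the Setd1a promoter printed above and the genes Orai3 and Fbxl19 (chr7:127762601-127782800), held 217 and 231 CPM in WT and 168 and 185 CPM in KO. It fell by 0.35 ± 0.085 on the log2 scale (224.2 ± 10.3 against 176.6 ± 11.9 CPM, edgeR adjusted p 0.0252). That call ended when 1 of 3 libraries was left out (adjusted p 0.053 for WT replicate 1, 0.103 for WT replicate 2 and 0.148 for KO replicate 1), when libraries were scaled to their total island reads (0.093), and per covered kb (-0.095, 0.780).

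At Kmt2d the promoter region did not pass and the region at the other end fell. The promoter, printed above, had the most UTX among the genes with a RefSeq promoter window. Its region had 173 and 167 CPM in WT and 172.5 and 181 CPM in KO, with overlapping groups (0.05 ± 0.077, adjusted p 0.652). The region at the lower-coordinate end, which is the 3' end of Kmt2d and the promoter of Prkag1 (a subunit of AMP-activated kinase; chr15:98822801-98845000), held 176 and 204 CPM in WT and 134 and 154 CPM in KO. It fell by 0.40 ± 0.11 on the log2 scale (190.3 ± 19.7 against 144.2 ± 14.0 CPM, edgeR adjusted p 0.0331). The call ended without WT replicate 2 (0.148) or KO replicate 1 (0.160), under total scaling (0.071), when an island in 2 libraries was enough for a test (0.095), and per covered kb (-0.049, 0.927).

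Promoter regions of the other genes with a RefSeq window did not pass: Kmt2a at -0.24 ± 0.088 (adjusted p 0.085), Kmt2c at -0.03 ± 0.0997 (0.864), Wdr5 at -0.07 ± 0.13 (0.704) and Rbbp5 at -0.18 ± 0.13 (0.349). The largest of all member regions by signal, 35.6 kb over the lower-coordinate end of Setd1b and its neighbour Rhof, had 611 and 576 CPM in WT and 565 and 563 CPM in KO (-0.07 ± 0.070, adjusted p 0.488). Groups did not overlap there, but the gap was small beside the level. Inside Kmt2b, a region at the lower-coordinate end was called as an island in both WT libraries (249 and 543 reads) and in neither KO library, so it had no test. It was 1 of 13 regions not tested for lack of an island in some library. The share of all H3K27ac regions with islands in both WT and no KO library is not given here.

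**Figure D4:**
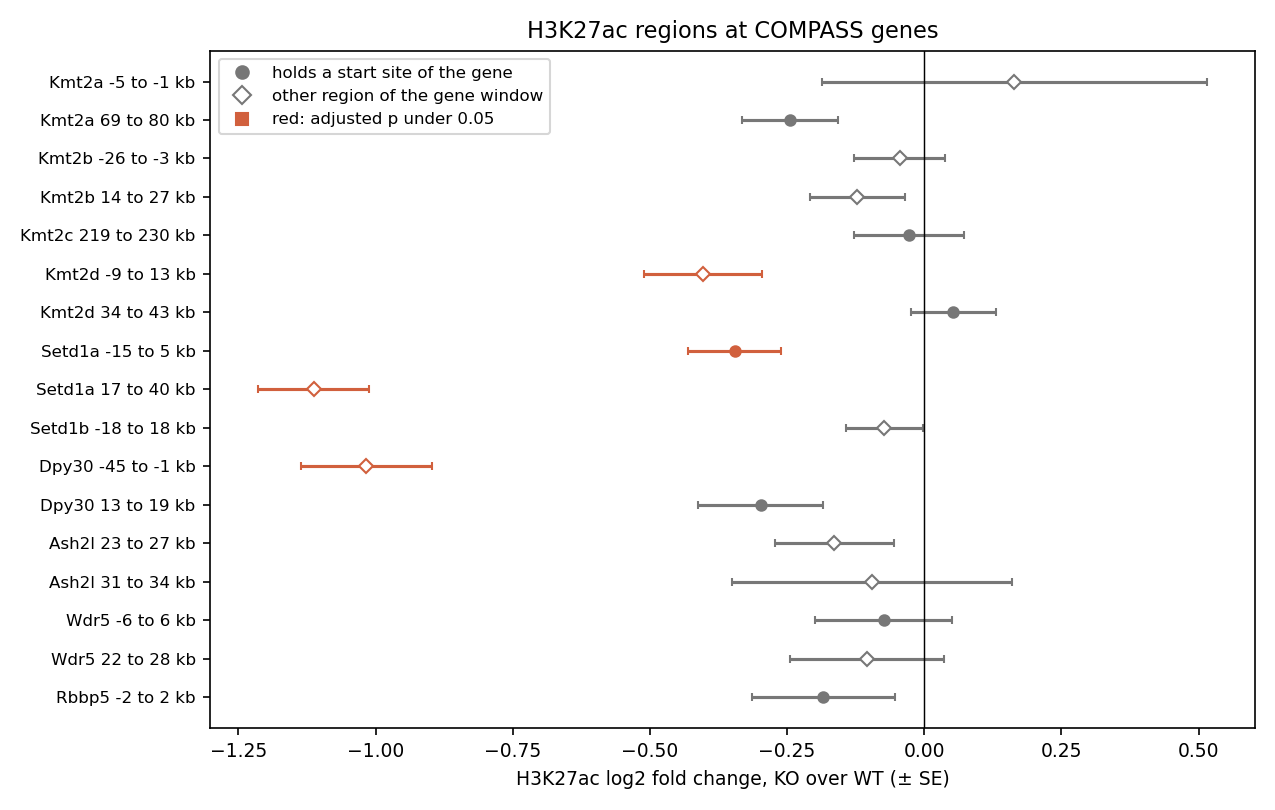
log2 fold change of H3K27ac, KO over WT (horizontal axis, ± SE), for the 17 tested regions at the 10 genes, labelled by their distance in kb from the gene's lower-coordinate end. The 4 called regions, in red, are all below 0, and the 2 near -1 are the Memo1 side of Dpy30 and the far end of Setd1a.

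H3K27me3, the mark that UTX can remove, was called only in the flanks of the COMPASS genes. No island met a gene body or RefSeq promoter of a member in any of the 4 libraries, and none of the 10 windows had an island in all 4, so none was tested. Over all genes edgeR called 0 of 5395 (0.0%) and 1 of 6771 regions (0.0148%, lower in KO), with 465 genes at an unadjusted p under 0.05 and 83 by DESeq2. Islands in the flanks met 4 windows. Beside Kmt2a, at Tmem25 and Ttc36, islands held 161 and 66 reads in the WT libraries and none was listed in KO. That made Kmt2a 1 of 10 with an island in both WT and no KO library, a pattern 2.25% of all genes shared. The reverse pattern, found at 0.489% of all genes, occurred at 0 of the 10. None of the flanking islands held more than 161 reads. The flanks of Kmt2b (68 reads, WT replicate 1), Rbbp5 (86 reads, WT replicate 1) and Setd1b (71 reads, KO replicate 2) met an island in 1 library each. Just beyond the window, the same merged region had islands in further libraries. Beside Kmt2b these were WT replicate 2 (56 reads) and KO replicate 2 (89 reads). Beside Rbbp5 they were WT replicate 2 (72 reads) and KO replicate 1 (87 reads), so neither flank was marked in WT only.

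Genes of related proteins were read in the same way, and their counts stand beside the 18.9% of all tested genes that passed. Of 12 genes of further COMPASS subunits 0 passed in H3K27ac by edgeR (1 at an unadjusted p under 0.05), with a median of 0.11; Wdr82, a SETD1 complex subunit, had the largest value (0.78 ± 0.42, adjusted p 0.249). It rested on KO replicate 1, at 189 rpm beside 85.3 rpm in KO replicate 2 and 81.3 and 74.5 rpm in WT, and was 0.077 without that library, 1.24 without KO replicate 2 (adjusted p 0.048) and 0.085 with edge islands in proportion. Men1, which encodes menin of the KMT2A and KMT2B complexes, stood at 0.39 ± 0.087 (edgeR adjusted p 0.052, DESeq2 0.020). With edge islands in proportion Men1 was at 0.235 (edgeR adjusted p 0.226). Of 6 H3K4 demethylase genes 1 passed: Kdm5b fell, from 188.5 and 239 rpm to 122 and 108.5 rpm (-0.93 ± 0.18, edgeR adjusted p 0.0377). Kdm1b, at a lower level, differed in the other direction, with 14.3 and 13.1 rpm in WT and 22.1 and 34.0 rpm in KO. It did not pass by edgeR (0.99 ± 0.25, adjusted p 0.065) but did by DESeq2 (0.013). Of 12 PRC2 and H3K27 demethylase genes 2 passed: Ezh1, the alternative PRC2 methyltransferase, fell from 71.3 and 65.9 rpm to 37.4 and 44.9 rpm (-0.78 ± 0.12, adjusted p 0.0276), and Phf19, a PRC2 accessory subunit, rose from 61.4 and 50.1 rpm to 87.7 and 96.7 rpm (0.69 ± 0.13, adjusted p 0.0353). Of 5 acetyltransferase and BET reader genes 0 passed (3 at an unadjusted p under 0.05). Without each single library, Kdm5b, Ezh1 and Phf19 no longer passed (adjusted p 0.052 to 0.142), nor with the replicate number as a block (0.078, 0.063 and 0.075), nor over gene ends only (0.251, 0.171 and 0.051), where Kdm5b was at -0.26. Per covered kb their differences were 0.36, -0.35 and 0.39 (adjusted p 0.542 to 0.593), so that of Kdm5b changed sign. UTX islands of both libraries met 9 of the 12 further subunit genes, 5 of 6 demethylase genes, 10 of 12 PRC2 genes and 5 of 5 acetyltransferase and reader genes, against 42.4% of all genes.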

How the data were processed

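ChIP-seq islands of 11 libraries were used. Per the submitters' processing notes, the authors used SICER and build mm10; the SICER version, aligner, gap, threshold and control are not given in the sources used here. The deposited files list islands per library with counts, the whole numbers of reads in each. Checked on the files, every island width is a multiple of 200 bp, and gaps are at least 800 bp (both histone marks) or 400 bp (UTX, IgG). Reads outside islands did not enter.

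Reads of all islands meeting a gene span plus 5 kb by at least 1 bp were summed, whole islands included; rpm divides by all island reads of the library. Genes, or merged regions, with an island in all 4 libraries of a mark entered the quasi-likelihood test of edgeR 4.0.16 (R 4.3.3; TMM factors, two-sided, p adjusted by Benjamini-Hochberg over all tested features, threshold 0.05). SE was taken from the F statistic. CPM is on the edgeR scale over tested features. The tests were checked on simulated counts. These had the same spread for all features and no island calling, so the recovered shares below leave out variation in where islands end. Of simulated 2-fold changes, 48% were recovered for H3K27ac gene spans and 80% for H3K27ac regions. For H3K27me3 these shares were 11% for gene spans and 22% for regions, so smaller changes could go uncalled. Of 4-fold changes, 100% were recovered for both H3K27ac tests, 74% for H3K27me3 gene spans and 97% for H3K27me3 regions. DESeq2 1.42.0, other windows, filters and scalings, and leaving out libraries were alternatives. For edge islands in proportion, an island's reads were multiplied by the share of its length inside the window. Without strand in the RefSeq gene table, starts come from the RefSeq promoter sequences only. The members and lists were chosen with earlier results of these data known. Genes named were the 10 members, the called members of 4 related lists with up to 4 others by size of change, and neighbours sharing an island. Replicate numbers were not taken to pair libraries: deviations of same-numbered WT and KO libraries correlated between -0.052 and 0.046. ATAC-seq, named in the study design, was not analysed here. A neighbouring gene of Setd1a is not reported here, and the maps draw only genes named in the text.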

Additional observations from a re-analysis of the deposited data

How the results depend on the processing

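Counts of calls moved with the processing. H3K27ac gene spans (2429 called) gave 3699 by DESeq2, 1166 at gene ends only, 0 per covered kb (1589 at an unadjusted p under 0.05) and 0 to 856 with 1 library left out, where the lone library is assumed to vary like the others. The 0 COMPASS genes called became 2 by DESeq2, 3 with edge islands in proportion, 1 without flanks (Setd1a), and 0 to 1 with 1 library left out (Dpy30 without WT replicate 1, Setd1a without KO replicate 2). H3K27ac regions (4889) gave 8514 with an island in at least 2 libraries, 338 per covered kb and 2649 to 3445 with 1 left out; the 4 COMPASS regions gave 2 under total scaling, 0 per covered kb and 2 to 4 with 1 left out. Total scaling shifted the median H3K27ac region by 0.115 (log2) and the split from 2258 higher and 2631 lower to 3268 and 2069. H3K27me3 gene spans (0) gave 2 under total scaling, 83 by DESeq2, 11 per covered kb, 4 at gene ends and 4 to 11 with 1 left out. H3K27me3 regions (1) gave 10 under total scaling, 34 by DESeq2, 0 with an island in at least 2 libraries, 4 per covered kb and 0 to 7 with 1 left out. UTX-occupied genes (7493, 8 COMPASS) fell to 1012 and 3 where an island had to cover 50% of the window. The cause of these shifts was not tested, beyond the fewer libraries or covered lengths each count rests on.

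With the replicate number as a block, H3K27ac gene spans gave 1234 and H3K27me3 regions 0 calls; apart from Kdm5b, Ezh1 and Phf19 it ended no call named above. With crossed numbers, chosen after seeing the data, they gave 780 and 94.

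Several values that had not passed changed sign. Over gene spans these were Dpy30 (0.16), Kmt2a (0.70), Kmt2d (0.22), Setd1b (0.41) and Wdr5 (-0.071) per covered kb; Setd1b under total scaling (0.0083); Kmt2b at gene ends (-0.43), without flanks (-0.43) and with edge islands in proportion (-0.53); Wdr5 at gene ends (-0.034); and, as ranges with 1 library left out, Kmt2b (-0.22 to 0.51), Kmt2c (-0.053 to 0.19), Setd1b (-0.067 to 0.0016) and Wdr5 (-0.14 to 0.16). Over regions these were, per covered kb, Kmt2a (-0.54 beside the gene, 0.63 at the promoter), Kmt2c (0.64), Setd1b (0.18) and Wdr5 beyond the gene (0.20); under total scaling, the weaker Ash2l region (0.017), Kmt2b beside the gene (0.071), Kmt2c (0.083), Setd1b (0.040), Wdr5 at the promoter (0.043) and beyond (0.012); and, as ranges with 1 library left out, Ash2l (-0.26 to 0.070), Kmt2a beside the gene (-0.38 to 0.59), Kmt2b (-0.12 to 0.032), Kmt2c (-0.13 to 0.076), Wdr5 at the promoter (-0.20 to 0.070) and beyond (-0.23 to 0.036). None of these passed except Kmt2b with edge islands in proportion.

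Island lists limit all of this. A weak mark below the SICER threshold reads as no island, UTX replicate 1 and the IgG library are shallow, and 2 libraries a group limit the precision.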
